A study of Mus musculus with 12 samples.

Results

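The Ms4a genes encode small membrane proteins that cross the membrane 4 times and are mostly made by blood cells. Members were taken by name: every probe set whose platform annotation gives 1 gene symbol starting with Ms4a. Of 3109 non-control probe sets in the deposited table, 6 met this rule, for 5 genes: Ms4a4c (2 probe sets), Ms4a4d, Ms4a6c, Ms4a7 and Ms4a8a. The 5 genes are among 1974 genes with a value. The family was chosen by the differences of Ms4a4c and Ms4a8a between Crebbp+/- and wild-type stroma, which were among the large ones of that contrast, so its values for Ms4a genes are described without a test. The arrays measured RNA from primary bone marrow stroma, the adherent layer that grows from plated marrow, of C57BL/6 mice aged 3 to 4 months. The 3 genotypes were wild-type, Crebbp+/- and Ep300+/-, the heterozygotes each carrying 1 inactive copy of a histone acetyltransferase gene that acts as a transcriptional coactivator. All 12 cultures, 4 per genotype, had grown for 2 weeks and were irradiated with 1500 cGy, so the wild-type layer is an irradiated one too. The labels call the 4 arrays of a genotype biological replicates. They do not say whether 1 animal or several gave each culture, nor how the alleles were made.

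The family takes in the B cell antigen CD20 (Ms4a1), the beta chain of the high-affinity IgE receptor on mast cells (Ms4a2) and a set of monocyte and macrophage proteins. Several members sit beside immune receptors in the membrane and tune their signalling. In mouse, Ms4a4c belongs to the genes that leukocytes switch on in response to interferon, Ms4a6c and Ms4a7 are expressed in monocytes and macrophages, and Ms4a8a has been described in alternatively activated macrophages. Cultured marrow stroma holds macrophages beside the mesenchymal cells. In whole-culture RNA, more cells of a type and more RNA per cell cannot be told apart.

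All 21 Ms4a genes of the mouse reference assembly GRCm38.p6 lie in 1 cluster on chromosome 19, and the other 16, Ms4a1 and Ms4a2 among them, have no value here. RefSeq promoter sequences were found for all 5 measured genes. The first shown are the 250 bases before an annotated start of Ms4a4c and of Ms4a8a, the members with the largest differences, and then those of Ms4a4d, a close relative of Ms4a4c with a small difference. They come from GRCm38.p6 and read 5′ to 3′ on the gene's strand: Ms4a4c at chr19:11407411-11407660 (plus strand), Ms4a8a at chr19:11081104-11081353 (minus strand) and Ms4a4d at chr19:11536544-11536793 (plus strand). Capitals mark matches to a searched motif.
Ms4a4c: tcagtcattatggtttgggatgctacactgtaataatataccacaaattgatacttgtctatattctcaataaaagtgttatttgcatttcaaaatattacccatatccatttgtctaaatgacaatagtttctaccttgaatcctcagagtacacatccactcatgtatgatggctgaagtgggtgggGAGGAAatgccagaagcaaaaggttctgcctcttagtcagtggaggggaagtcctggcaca
Ms4a8a: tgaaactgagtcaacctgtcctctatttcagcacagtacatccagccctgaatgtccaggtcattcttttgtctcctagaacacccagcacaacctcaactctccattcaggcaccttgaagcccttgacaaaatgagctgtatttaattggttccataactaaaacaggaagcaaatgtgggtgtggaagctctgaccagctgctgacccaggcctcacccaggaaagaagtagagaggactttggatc
Ms4a4d: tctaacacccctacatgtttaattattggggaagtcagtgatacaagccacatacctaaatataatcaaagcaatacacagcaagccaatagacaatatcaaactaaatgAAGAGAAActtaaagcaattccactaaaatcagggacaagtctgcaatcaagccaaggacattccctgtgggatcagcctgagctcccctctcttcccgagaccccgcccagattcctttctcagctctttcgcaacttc
Both strands of the 6 windows of the 5 genes were searched. The core of the interferon-stimulated response element, GAAA and again GAAA with any 2 bases between, occurred in none of them and in 2.98% of all 32851 promoter windows of this length. The gamma-activated sequence TTCNNNGAA (7.02% of all windows), the cAMP response element TGACGTCA (1.55%) and the Ets-type site GAGGAAGT (2.44%) also had no match. Shorter cores contained in the first and last of these were searched after they came back empty. The Ets core GAGGAA, capitalised in Ms4a4c, lies 61 bases before its start and occurs in 23.3% of all windows. The interferon regulatory factor core AANNGAAA, capitalised in Ms4a4d, lies 140 bases before its start and occurs in 21.3% of all windows. It also matched once each in the windows of Ms4a6c and of the second start of Ms4a7. A missing match says only that these letters are not in this window.

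Levels are log2 values made by the authors with GCRMA, a method that corrects background by probe sequence and summarises the probes of a probe set. They are relative, so a level is compared between arrays. Where signal is ranked between probe sets, to name genes or to place a value on its array, the rank is one of brightness and not of transcript abundance. Every probe set of the table had an interquartile range over the 12 arrays of at least 0.5001 and reached the log2 of 100, which is 6.64, on at least 3 arrays. Ms4a6c passed with a range of 0.54. Ms4a8a passed with 4 arrays at that level, 3 of them Crebbp+/-, so a difference of Ms4a8a was needed for it to be in the table at all. Crebbp itself lay between 7.67 and 7.88 on the Crebbp+/- arrays and between 8.45 and 8.73 on the other 8. Ep300 has no value here. The Y-linked Eif2s3y was near background on Crebbp+/- 1 (2.73) and Crebbp+/- 3 (2.69) and read at least 8.41 elsewhere. The cytokine gene Tnf was highest on Crebbp+/- 3 and Ep300+/- 3, at 14.4 on both.

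Ms4a4c, the interferon-responsive member, was higher on every Crebbp+/- array than on any other array. Probe set 1420671_x_at, the first of its 2, read 11.39, 11.09, 10.98 and 10.74 on Crebbp+/- 1 to 4. On wild-type 1 to 4 it read 8.29, 8.88, 8.38 and 8.06, and on Ep300+/- 1 to 4 it read 8.22, 9.10, 9.92 and 7.83. The 4 Crebbp+/- arrays lay close together, while the Ep300+/- arrays were widely spread, with replicate 3 the highest. The means were 11.05 ± 0.27 in Crebbp+/-, 8.40 ± 0.35 in wild-type and 8.77 ± 0.93 in Ep300+/- stroma (SD, n = 4). Crebbp+/- stood above wild-type by 2.64 on the log2 scale (SE 0.40 from limma), or 6.25-fold, and the nearest arrays of the groups were 1.85 apart.

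The second Ms4a4c probe set gave the same picture. Probe set 1450291_s_at read 10.69, 10.24, 10.29 and 10.11 on Crebbp+/- 1 to 4, against 7.32, 7.90, 8.07 and 7.14 in wild-type and 7.05, 8.45, 9.73 and 6.97 in Ep300+/-. Its difference between Crebbp+/- and wild-type was 2.73 (SE 0.52), or 6.61-fold, with a gap of 2.05 between the nearest arrays. On the 8 arrays without the Crebbp mutation the probe sets correlated with r = 0.958, a description of arrays whose levels they share. By Affymetrix's naming, probes of an "_x_" set can match other transcripts and those of an "_s_" set match several transcripts of a family. Signal from near relatives such as Ms4a4b or Ms4a4d therefore cannot be separated from that of Ms4a4c in these values. The Ms4a4d probe set showed no such gap between the genotypes.

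Ms4a8a, known from alternatively activated macrophages, was high on 3 of the 4 Crebbp+/- arrays. Its probe set 1418797_at read 8.06, 7.98, 8.37 and 5.41 on Crebbp+/- 1 to 4. On wild-type 1 to 4 it read 5.45, 4.55, 4.78 and 3.84, and on Ep300+/- 1 to 4 it read 5.19, 4.27, 6.80 and 4.52. Crebbp+/- 4 thus lay just under wild-type 1, and the groups overlapped. The mean was 7.45 ± 1.38 in Crebbp+/-, 4.66 ± 0.66 in wild-type and 5.19 ± 1.14 in Ep300+/- stroma (SD, n = 4).

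The difference between Crebbp+/- and wild-type for Ms4a8a was 2.80 on the log2 scale (SE 0.68), or 6.96-fold. On the wild-type arrays at most 1.90% of the probe sets of the table read lower than Ms4a8a, so its wild-type values lie at the bottom of the range and the size of the fold is uncertain. On Crebbp+/- 1 to 3 between 40.5% and 49.8% read lower, and on Crebbp+/- 4 only 2.35%. That array also stood apart in list levels, given here as the mean deviation of a list's genes from their own means over the 12 arrays. The endothelial list was at 0.028 on Crebbp+/- 4 and between 1.63 and 1.97 on the other 3, and the stromal list at -0.62 against 0.42 to 0.64. The part of these differences in the Ms4a8a value was not tested.

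**Figure D1:**
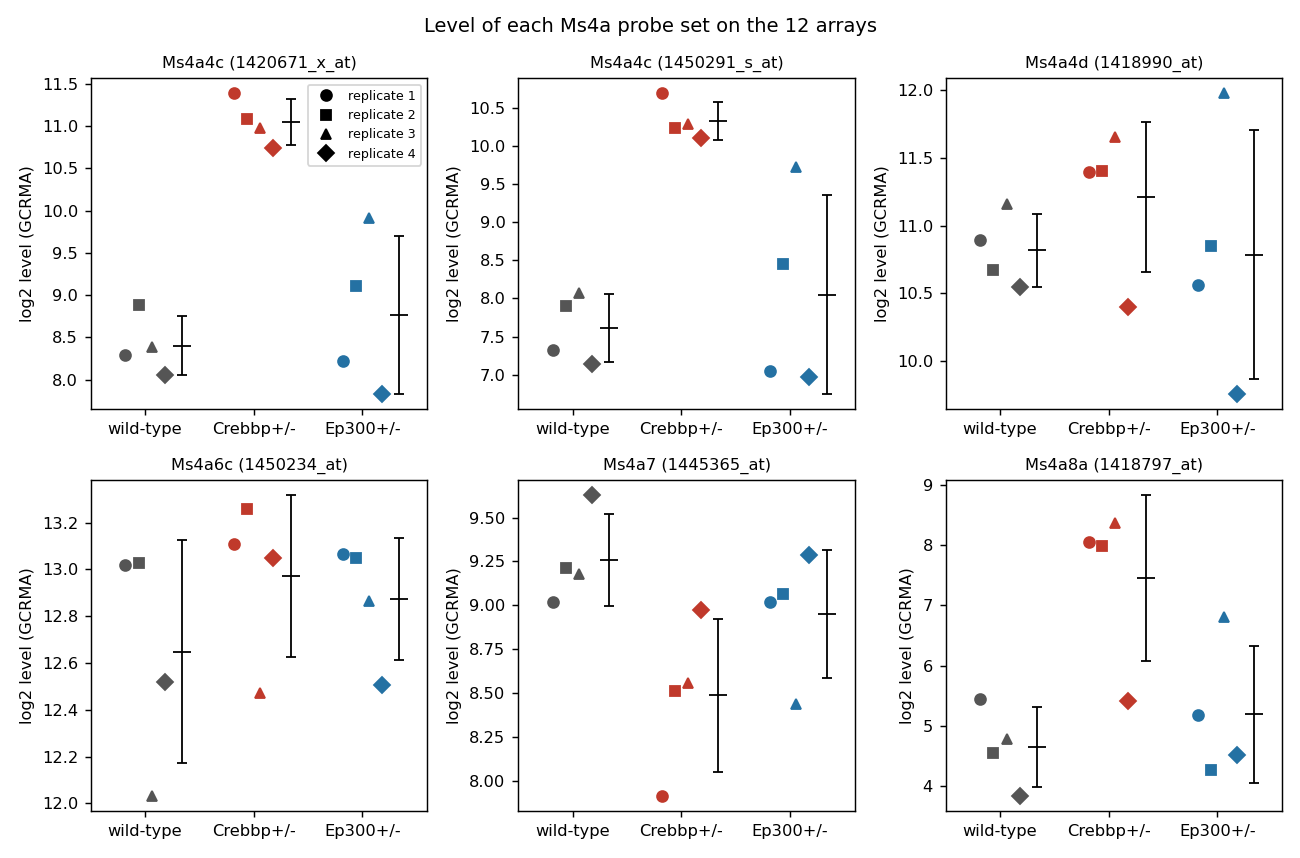
Log2 level of each Ms4a probe set (vertical axis, GCRMA, a separate scale per panel) on the 4 arrays of each genotype, with the mean ± SD as a black bar. Symbols give the replicate number. Both Ms4a4c panels show the 4 Crebbp+/- arrays above all others (10.74 or more and 10.11 or more), and in the Ms4a8a panel Crebbp+/- 4 sits at 5.41, among the wild-type arrays.

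Ms4a4d, Ms4a6c and Ms4a7 differed less. Ms4a7, a macrophage member, was the only one of the 6 probe sets with a lower mean in Crebbp+/- than in wild-type stroma. Its probe set 1445365_at read 7.92, 8.51, 8.56 and 8.97 on Crebbp+/- 1 to 4 against 9.02, 9.21, 9.18 and 9.63 in wild-type and 9.02, 9.06, 8.44 and 9.29 in Ep300+/-. The Crebbp+/- and wild-type arrays did not overlap, though the nearest were only 0.044 apart. Of the 6 probe sets 2 lay wholly higher in Crebbp+/- (both of Ms4a4c) and 1 wholly lower, where 10.4% and 8.46% of all probe sets did so. The difference was -0.77 (SE 0.29), or 58.7% of the wild-type level, and -1.04 after quantile normalization. The only sequence the platform annotation ties to this probe set is an expressed sequence tag, so which Ms4a7 transcripts it reads is not known here.

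Ms4a4d (probe set 1418990_at) read 11.39, 11.40, 11.66 and 10.40 on Crebbp+/- 1 to 4, 10.90, 10.67, 11.16 and 10.55 in wild-type, and 10.56, 10.85, 11.97 and 9.76 in Ep300+/-. The highest and the lowest of the 12 values were both in Ep300+/- stroma. Crebbp+/- stood 0.39 above wild-type (SE 0.43), and 0.13 after quantile normalization. Ms4a6c (probe set 1450234_at) read 13.11, 13.26, 12.47 and 13.05 on Crebbp+/- 1 to 4, 13.02, 13.03, 12.03 and 12.52 in wild-type, and 13.07, 13.05, 12.86 and 12.51 in Ep300+/-. Its genotype means lay within 0.32 of each other, less than the SD of the wild-type arrays (0.48), and the order of the Crebbp+/- and Ep300+/- means turned with quantile normalization (difference -0.0031, against 0.10).

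By the fit across the whole table, 3 of the 6 probe sets (both of Ms4a4c and that of Ms4a8a) were called higher in Crebbp+/- than in wild-type at a limma adjusted p under 0.05, and 0 lower. Over all probe sets 6.18% were called, 5.02% higher and 1.16% lower. These were 156 and 36 probe sets, or 120 and 72 after quantile normalization. Because this contrast chose the family, the count supports nothing. It was 0 without wild-type 4, 1 without Crebbp+/- 1 or 2, and 2 without wild-type 2, wild-type 3, Crebbp+/- 3 or Ep300+/- 1. It was also 0 without Crebbp+/- 1 and 3 together. The labels do not say whether shared replicate numbers pair these arrays. With the replicate number as a block, Ms4a7 was also called, lower. That fit called 26.1% of all probe sets, 17.5% higher and 8.62% lower. The difference of the first Ms4a4c probe set stayed between 2.53 and 2.80 and that of Ms4a8a between 2.49 and 3.48 when any 1 array was left out. Without Crebbp+/- 1 and 3, on which Eif2s3y was low, they were 2.51 and 2.04. The median difference over all probe sets was 0.24, and 0.022 after quantile normalization, under which the first Ms4a4c probe set differed by 2.46 and Ms4a8a by 2.62.

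In Ep300+/- against wild-type stroma, a contrast that did not choose the family but uses the same wild-type arrays, no Ms4a probe set passed. The limma adjusted p was 0.965 for 5 of them, and 0.998 for Ms4a4d. Here 0 of 3109 probe sets were called (0%), and 4.05% had an unadjusted p under 0.05, none of them an Ms4a probe set. With the replicate block 0 of the 6 passed, and 0.0322% over all. No Ms4a probe set had groups wholly apart, where 1.99% of all lay apart higher and 2.16% lower. Ms4a8a differed by 0.54 (SE 0.68, exact two-sided permutation p = 0.514), the first Ms4a4c probe set by 0.36 (SE 0.40, exact p = 0.571) and Ms4a7 by -0.31 (SE 0.29, exact p = 0.286). The smallest exact p that 4 against 4 arrays allow is 0.0286. For the second Ms4a4c probe set the difference was 0.44 (SE 0.52), for Ms4a6c 0.22 (SE 0.29) and for Ms4a4d -0.033 (SE 0.43). Without Ep300+/- 3 the difference of the first Ms4a4c probe set was -0.019 and that of Ms4a8a 0.0038. Ms4a4d went the other way, from -0.033 to -0.43, and Ms4a6c was at 0.23. That array had the highest Ms4a4c, Ms4a8a and Ms4a4d values and the lowest Ms4a7 value of its group, beside the high Tnf level given above. Tnf was also high on Ep300+/- 2 (12.29). There the first Ms4a4c probe set was second highest of the group (9.10) but Ms4a8a was lowest (4.27). A link with Tnf was not tested.

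Against Ep300+/- stroma, Crebbp+/- stroma was again higher in Ms4a4c and Ms4a8a. This contrast uses the Crebbp+/- arrays that chose the family, so it is given without a test. The first Ms4a4c probe set differed by 2.28 (SE 0.40), or 4.86-fold, and the nearest arrays were 0.82 apart. The second differed by 2.28 (SE 0.52), with the nearest arrays 0.39 apart. These 2 of 6 lay wholly higher and 0 wholly lower, where 9.13% and 4.34% of all probe sets did so. Ms4a8a differed by 2.26 (SE 0.68), with Ep300+/- 3 above Crebbp+/- 4. Ms4a7 was lower by a mean of 0.46 (difference -0.46, SE 0.29), with overlap. The order of the genotype means in both Ms4a4c probe sets and in Ms4a8a was Crebbp+/-, Ep300+/- and wild-type. The last 2 did not differ beyond their spread in any of the 3. Since the Crebbp+/- arrays chose the family, the count of calls supports nothing here either. Of the 6 probe sets 2 were called higher and 0 lower, where 6.4% of all were called, 4.89% higher and 1.51% lower. The count was 3 with the replicate block (24.4% over all, 19.1% higher and 5.31% lower), without Crebbp+/- 4 or without Ep300+/- 3. It was 1 without Crebbp+/- 2, without Ep300+/- 4 or in a fit of these 2 genotypes alone. It was 0 without Crebbp+/- 1, without Ep300+/- 1, or without Crebbp+/- 1 and 3 together.

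**Figure D2:**
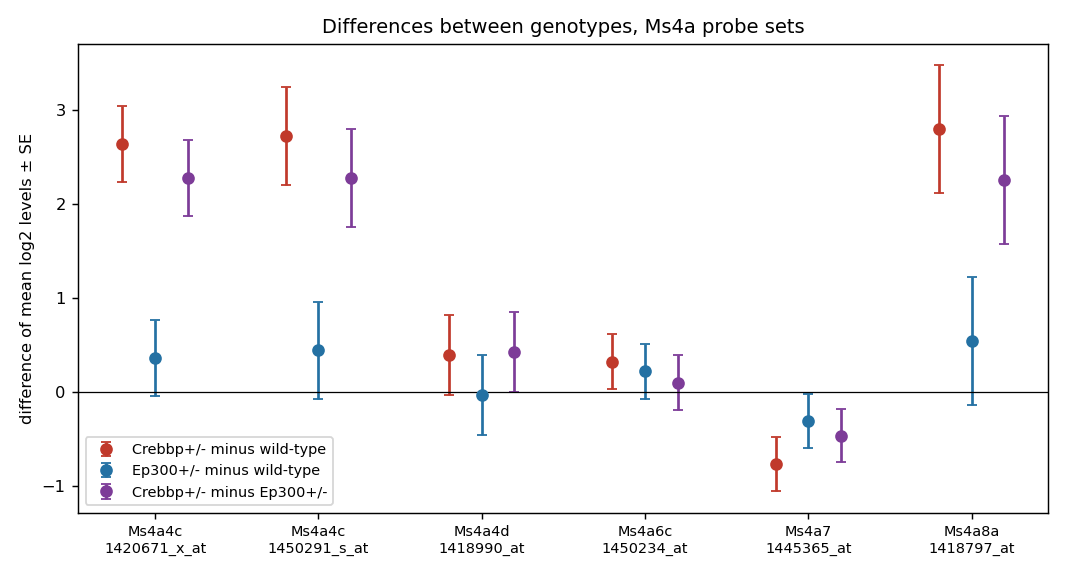
Difference of mean log2 levels between genotypes for each Ms4a probe set (points) with limma's standard error (bars), in the 3 comparisons named by colour. The differences of Ms4a4c and Ms4a8a from wild-type lie between 2.64 and 2.80 in Crebbp+/- and between 0.36 and 0.54 in Ep300+/-, while Ms4a7 lies below 0 in all 3 comparisons.

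Along the chromosome the 2 genes with the largest differences are not neighbours. In the reference order Ms4a7, the member with the lower mean, lies between Ms4a8a and Ms4a4c. Of 11 other genes within the cluster only AW112010, a long non-coding RNA next to Ms4a8a, has a probe set, and of 10 flanking genes only Prpf19, a splicing and ubiquitin ligase factor read here by its brighter probe set. For AW112010 the mean in Crebbp+/- exceeded that in wild-type by 1.22 (SE 0.67, limma adjusted p = 0.253), with overlapping groups. Prpf19 had a difference of -0.58 (SE 0.31, limma adjusted p = 0.247). Neither passed in the other comparisons.

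**Figure D3:**
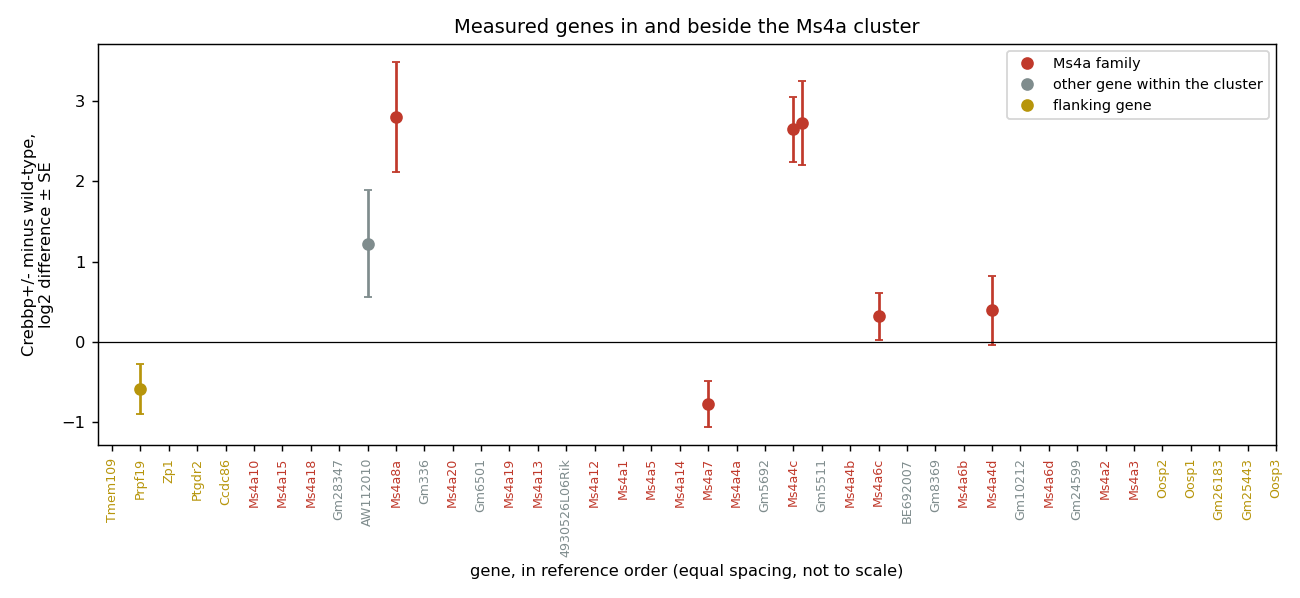
Difference between Crebbp+/- and wild-type stroma (vertical axis, log2, ± limma SE) for the measured genes in and beside the Ms4a cluster, placed in reference order with equal spacing. Ms4a8a (2.80) and Ms4a4c (2.64 and 2.73) stand high, with Ms4a7 (-0.77) between them, and names without a point have no value here.

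Of the list of interferon-induced genes, 28 of 33 were measured. Where a gene had several probe sets, the one with the highest mean over the arrays stands for it. In Crebbp+/- against wild-type stroma 21 rose and 0 fell (limma adjusted p under 0.05, where 5.02% of all probe sets rose), and the median difference was 1.30 against 0.24 over all probe sets. The members of brightest signal were Bst2, which tethers budding viruses to the cell surface, at a difference of 0.996 that did not pass, Rtp4 (1.21) and Oasl2 (1.32), which passed, and Trim30a (0.73), which did not. For 27 of the 28 the Crebbp+/- arrays lay wholly above the wild-type arrays, where 10.4% of all probe sets did so. The count of calls changed with single arrays and with the fit. It was 0 without wild-type 4, Crebbp+/- 1 or Crebbp+/- 2, 4 without wild-type 2, 5 without wild-type 3, 7 without Crebbp+/- 3, 10 without wild-type 1, and 11 or 12 without Ep300+/- 1 or 2. It was also 0 without Crebbp+/- 1 and 3 together, and 13 after quantile normalization. It was 20 in a fit of Crebbp+/- and wild-type alone, 22 without Crebbp+/- 4 or Ep300+/- 3, and 24 without Ep300+/- 4. With the replicate block it was 25, in a fit that called 17.5% of all probe sets higher. With array weights it was 28, in a fit that called 1425 of all 3109 probe sets in either direction. Without wild-type 4 the whole table held only 5 calls. In Ep300+/- against wild-type stroma 0 of 28 passed, with a median of 0.16 against 0.049. Between the heterozygotes 13 rose in Crebbp+/-, where 4.89% of all probe sets rose (median 0.96 against 0.025). That count was 0 without Crebbp+/- 1, without Ep300+/- 1 or without Crebbp+/- 1 and 3 together. It was 4 without Crebbp+/- 2 or in a fit of these 2 genotypes, 5 without Ep300+/- 4 and 22 without Ep300+/- 3. It was 23 with the replicate block, which called 19.1% of all probe sets higher. With array weights it was 26, in a fit that called 1533 of all 3109 probe sets in either direction. Oasl1 and Cxcl10 reached the table's level minimum only with the Crebbp+/- arrays. The level of the list, its mean deviation on an array, was 1.12, 0.91, 0.99 and 0.54 on Crebbp+/- 1 to 4, -0.71, -0.073, 0.51 and -1.04 on Ep300+/- 1 to 4, and between -0.76 and -0.35 in wild-type. On the 8 arrays without the Crebbp mutation, the first Ms4a4c probe set correlated with the list level at r = 0.937, Ms4a4d at 0.924, Ms4a8a at 0.670, Ms4a6c at 0.172 and Ms4a7 at -0.803. Other lists gave high values on these arrays too: Ms4a4c had r = 0.83 with the monocyte and macrophage list and 0.82 with the receptor list, and Ms4a8a had 0.84 with the list of alternatively activated macrophages. These are descriptions, and points of 1 array share its RNA and normalization.

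Of the 19 genes chosen as receptors or signalling partners of Ms4a proteins or of their close pathways, 7 were measured. Fcgr4, an activating receptor for IgG, rose in Crebbp+/- against wild-type stroma by 0.94 (limma adjusted p = 0.0338) and against Ep300+/- by 0.88 (limma adjusted p = 0.0412), and no other passed. In either comparison the list had 0 calls in 9 of the 12 fits that leave out 1 array. The list median was 0.55 against wild-type, where the median over all probe sets was 0.24 and 5.02% of them rose. Against Ep300+/- 4.89% of all rose. The 4 of brightest signal were Fcgr2b, the inhibitory IgG receptor (0.55), the adaptors Tyrobp (0.17) and Fcer1g (0.38), and Fcgr1, the high-affinity IgG receptor (0.56), all as differences between Crebbp+/- and wild-type that did not pass. None passed between Ep300+/- and wild-type, where the median was 0.061. The 4 arrays with the highest level of this list, Crebbp+/- 1 to 3 (0.61, 0.31 and 0.43) and Ep300+/- 3 (0.26), were also the 4 with the lowest Ms4a7. Wild-type 4, with the highest Ms4a7, had the lowest list level (-0.52). On Crebbp+/- 4 the list was at -0.061, under wild-type 1 (-0.016) and wild-type 2 (0.015), although Ms4a7 was higher on those 2 arrays.

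Markers of the cells that could carry Ms4a transcripts moved in part. Of 34 monocyte and macrophage genes 10 were measured. Their list level lay between -0.11 and 0.62 in Crebbp+/-, between -0.46 and 0.63 in Ep300+/- and between -0.68 and -0.13 in wild-type stroma. Of them Cd163, a scavenger receptor, rose in Crebbp+/- against wild-type (1.18, limma adjusted p = 0.0228), while Tyrobp (0.17), Marco (-0.13), a scavenger receptor, and the lysosomal Laptm5 (0.22) did not pass. The median was 0.53, against 0.24 over all probe sets, of which 5.02% rose and 1.16% fell. Of 18 genes of alternatively activated macrophages 9 were measured, with a median of 1.25: Cd163 and the chemokine Ccl8 rose, Stab1, a scavenger receptor, fell by 1.12 (limma adjusted p = 0.0214), and Chil3 (0.21) and the lectin Clec10a (1.25) did not pass. Stab1 also fell against Ep300+/- (-0.96, limma adjusted p = 0.0317). Both lists had 0 calls against wild-type without wild-type 2, 3 or 4 or without Crebbp+/- 1, 2 or 3. The call of Stab1 against Ep300+/- held in 4 of the 12 fits that leave out 1 array (Crebbp+/- 4, Ep300+/- 3, wild-type 1 or wild-type 3). Ccl8, Arg1 and Il10 of the alternatively activated list reached the table's level minimum only with the Crebbp+/- arrays. The rise of Ccl8 and the median of 1.25 are therefore partly set by that filter. In Ep300+/- against wild-type none of either list passed. Of the B lymphocyte list only the adaptor Blnk, also present in macrophages, was measured among 15 genes. It was at -1.21 against wild-type (limma adjusted p = 0.0789) and fell against Ep300+/- (-1.73, limma adjusted p = 0.0235), a call lost without Crebbp+/- 1, Crebbp+/- 2, Ep300+/- 1 or Ep300+/- 4. Of 16 T and NK cell genes and 18 mast cell and granulocyte genes 0 had a probe set, so those cells have no check here.

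Of 15 endothelial markers 13 were measured, and 8 rose in Crebbp+/- against wild-type stroma (median 1.98), 0 in Ep300+/- against wild-type (median -0.43) and 13 in Crebbp+/- against Ep300+/- (median 2.25). Over all probe sets 5.02%, 0% and 4.89% rose, with medians of 0.24, 0.049 and 0.025. Of the 13, Tie1, Kdr, Cldn5, Icam2 and Erg reached the table's level minimum only with the Crebbp+/- arrays, so these 5 had to differ and the counts and medians are partly set by that filter. The 8 became 0 without wild-type 4, Crebbp+/- 1, Crebbp+/- 2 or both Crebbp+/- 1 and 3, and 1 without wild-type 2, wild-type 3 or Crebbp+/- 3. They became 5 without Crebbp+/- 3 and Ep300+/- 3, and 13 without Crebbp+/- 4, with the replicate block or with array weights. The block called 17.5% of all probe sets higher, and array weights called 1425 of all 3109 in either direction. The 13 against Ep300+/- became 0 without Crebbp+/- 1, Ep300+/- 1 or both Crebbp+/- 1 and 3. They became 4 without Crebbp+/- 2, 5 without Ep300+/- 4 and 7 without Crebbp+/- 3. They became 8 in a fit of these 2 genotypes or without Crebbp+/- 3 and Ep300+/- 3. A filter on a mean of at least 7 removed Tie1, Kdr, Cldn5, Icam2 and Erg, and the 8 that remained were all called. Among those of brightest signal Emcn (1.44) and Pecam1 (1.98) passed against wild-type, and Eng (0.76) and Plvap (1.005) did not. Of 15 stromal genes 10 were measured, and 0 passed in any comparison. Their wild-type means ran from 6.94 (the collagen gene Col1a2) to 14.41 (the chemokine Cxcl12). The differences between Crebbp+/- and wild-type were 0.25 for Cxcl12, 0.022 for the stem cell factor gene Kitl, 0.39 for Vcam1 and -0.40 for the adipocyte hormone gene Adipoq, the 4 of brightest signal. The list's extremes, named after their values were seen, were Lepr, the leptin receptor of marrow stromal cells (1.13), and Col1a2 (-1.42). On Ep300+/- 3 Ms4a8a read 6.80 while the endothelial list was at -0.42. On Crebbp+/- 4 Ms4a4c read 10.74, above every wild-type and Ep300+/- array, while the endothelial list was at 0.028. With the replicate block the other lists held more calls, and so did the whole table. Of all probe sets it called 17.5% higher and 8.62% lower against wild-type, and 19.1% higher and 5.31% lower against Ep300+/-. The list counts are to be read beside these shares. Against wild-type the list calls were 3 higher in the monocyte and macrophage list, 4 higher and 1 lower in the alternatively activated list, 2 higher in the receptor list, 1 lower in the stromal list, and Blnk lower. Against Ep300+/- they were 2 higher and 1 lower, 3 higher and 1 lower, 2 higher, 3 higher in the stromal list, and Blnk lower, in the same order. What part the macrophage or endothelial lists had in the Ms4a differences was not tested.

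**Figure D4:**
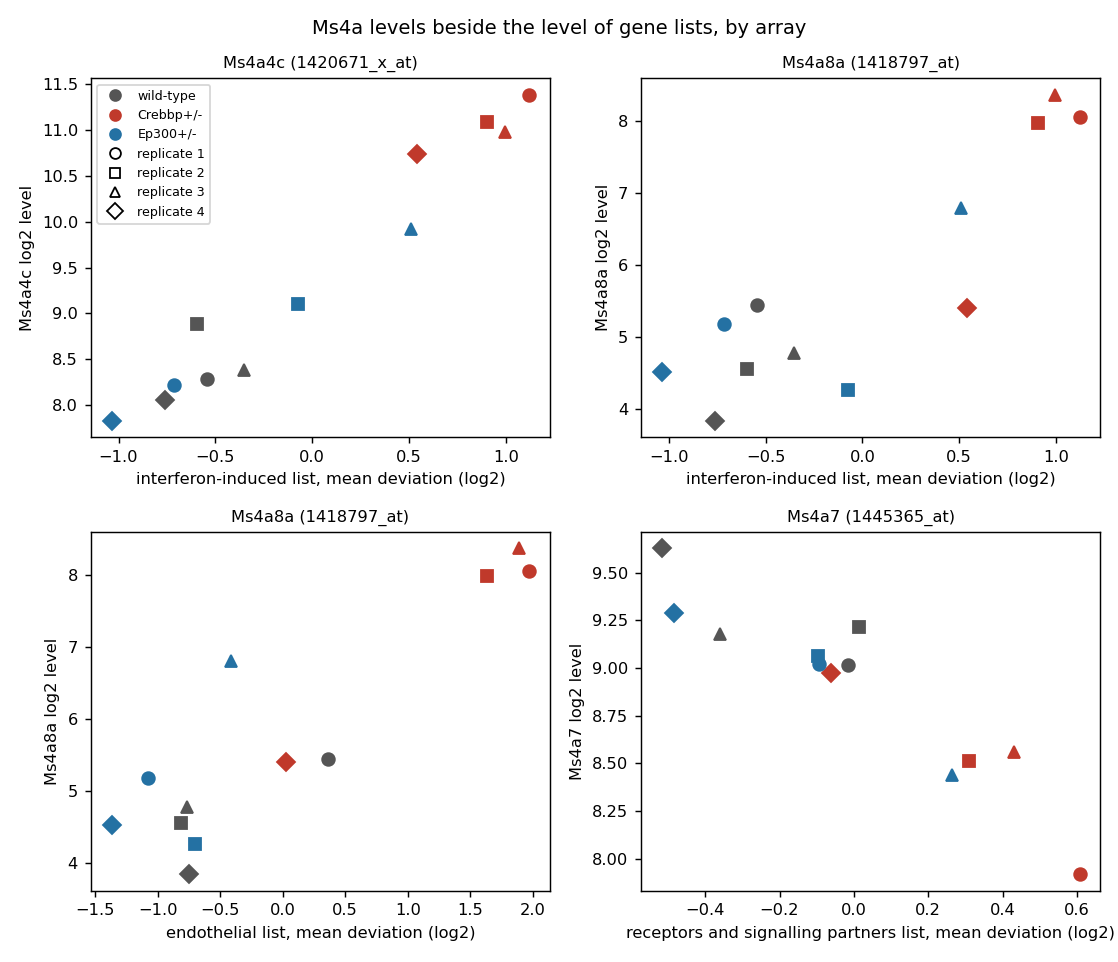
Level of Ms4a4c, Ms4a8a and Ms4a7 on each of the 12 arrays (vertical axes, log2) against the mean deviation of a gene list on the same array (horizontal axes, log2). Colours give the genotype and symbols the replicate number. Ms4a4c rises with the interferon-induced list over the 12 arrays, though not in order among the wild-type arrays. There Ms4a4c is highest on wild-type 2 (8.88) and the list on wild-type 3 (-0.35). Ms4a8a on Crebbp+/- 4 (5.41) sits low on both of its panels, and Ms4a7 runs opposite to the receptor list.

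Among 1969 other genes, those whose levels over the 12 arrays were most like Ms4a4c by Pearson correlation were Xaf1 (r = 0.985), Ifit2 (0.977), Oasl2 (0.977), Ifi209 (0.977) and Rtp4 (0.976). Each belongs to the interferon-induced genes by common knowledge, and all but Ifi209 stand in the list above. The high correlations partly restate the gap between Crebbp+/- and the other arrays: 9.65% of the 1969 genes correlated with Ms4a4c above 0.8. Their differences between Crebbp+/- and wild-type lay between 1.21 and 1.74, less than the 2.64 of Ms4a4c. In Ep300+/- against wild-type they lay between -0.013 and 0.34, with none past the test.

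Those most like Ms4a8a were Garre1 (r = 0.968), Nrarp (0.964), a target and inhibitor of Notch signalling, Itga1 (0.952), the alpha 1 subunit of a collagen receptor, Notch3 (0.947), a Notch receptor, and Oasl1 (0.947), an interferon-induced gene. Above 0.8 lay 10.2% of the 1969 genes. On Crebbp+/- 4 the first 4 of these genes were below their mean over the 12 arrays, as Ms4a8a was, and Oasl1 was above. Nrarp and Oasl1 reached the table's level minimum only on Crebbp+/- 1, 2 and 3, where Ms4a8a was high too. Both needed that rise to be in the table, so their likeness to Ms4a8a is partly set by the filter. Garre1, Itga1 and Notch3 were above that level on every array. The first Ms4a4c probe set and Ms4a8a themselves correlated with r = 0.624 on the 8 arrays without the Crebbp mutation, and Ms4a7 and Ms4a8a with r = -0.930.

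**Figure D5:**
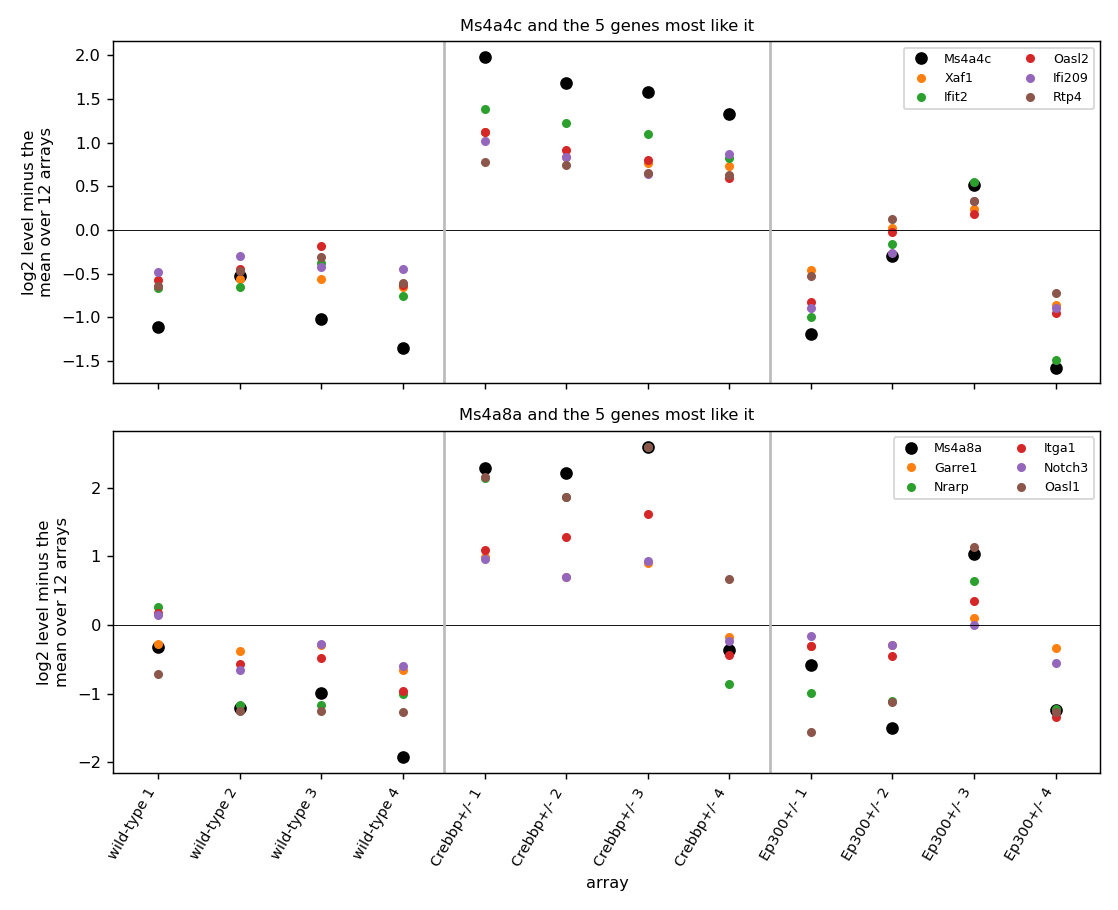
Log2 level minus the gene's mean over the 12 arrays (vertical axis) on each array (horizontal axis) for Ms4a4c and for Ms4a8a (black) with the 5 genes most like each. The genes of the upper panel are above 0 on all 4 Crebbp+/- arrays and on Ep300+/- 3, and those of the lower panel, except Oasl1, are below 0 on Crebbp+/- 4.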

How the data were processed

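RNA of 12 cultures was hybridized to Affymetrix arrays, 1 array per culture. The authors deposited log2 values for 3127 probe sets, 18 of them controls. Per the submitters' processing notes, GCRMA produced them. Its version is not given in the sources used here, nor is the chip definition or a scan date. The filter on spread and level was read from the values. It removes flat genes, so a gene outside the table has no value here. Gene names came from the platform annotation: 2486 probe sets had 1 symbol, 176 several and 447 none. Updates by gene ID and the order of genes came from RefSeq's GRCm38.p6 table.

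Differences were fitted with limma 3.58.1 in R 4.3.3 (lmFit, eBayes) on 3109 probe sets and all 12 arrays, with Benjamini-Hochberg adjustment over all of them, and called at an adjusted p under 0.05. The script was tested on simulated data. Exact permutation tests were two-sided. The members and lists were chosen with earlier results of these data known. Named were all Ms4a probe sets, the 5 genes most like Ms4a4c and Ms4a8a, up to 4 list members of highest mean, measured neighbours, and members of lists that passed, the last chosen after their values were seen. Levels of a list are mean deviations over its measured genes. Same-numbered arrays deviated together in Crebbp+/- and wild-type (r from 0.448 to 0.603) and in Crebbp+/- and Ep300+/- (0.294 to 0.513). Differently numbered arrays were not compared, so these values do not show that the arrays are pairs. The main fit has no block, and a fit with the replicate number as a block is given beside it. What the numbers stand for is not in the labels. The number of arrays limits the precision.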

Additional observations from a re-analysis of the deposited data

Results flagged for a closer look

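Ms4a8a on Crebbp+/- 4 read 5.41 while the other 3 Crebbp+/- arrays lay between 7.98 and 8.37. The gap to the nearest of them was 0.869 of the group's range, above Dixon's 95% critical value for 4 arrays. Chance alone flags about 1 in 20 such groups, and 18 groups of Ms4a values were looked at. Without this array the difference of Ms4a8a between Crebbp+/- and wild-type was 3.48, against 2.80 with it.

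The endothelial list level on wild-type 1 was 0.36, with the other wild-type arrays between -0.81 and -0.75, a gap of 0.946 of the range. Ms4a8a was also highest there among the wild-type arrays, at 5.45.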

How the results depend on the processing

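Without any 1 array, the difference of Ms4a4c (first probe set) lay between 2.53 and 2.80 for Crebbp+/- against wild-type, between -0.019 and 0.68 for Ep300+/- against wild-type, and between 1.97 and 2.66 for Crebbp+/- against Ep300+/-. For Ms4a8a the ranges were 2.49 to 3.48, 0.0038 to 0.85 and 1.95 to 2.94. In Ep300+/- against wild-type the second Ms4a4c probe set ranged from -0.12 to 0.80 and Ms4a4d from -0.43 to 0.31. Leaving out Crebbp+/- 3 and Ep300+/- 3 together, chosen after seeing the data, gave -0.019 and -0.12 for the Ms4a4c probe sets, and array weights gave 0.016 for Ms4a4d. These turns of sign concern differences that had not passed. The weights stopped before convergence, with Crebbp+/- 1 at 10.3 and the others at 3.44 or less, and gave -1.25 for Ms4a7 in Crebbp+/- against wild-type. The filter on a mean of at least 7 removed Ms4a8a. In the comparisons of Crebbp+/- with wild-type and with Ep300+/-, every alternative run left the differences of Ms4a4c and Ms4a8a positive and within 1 SD.

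Counts over the whole table moved more. For Crebbp+/- against wild-type, 192 became 1425 with array weights, 812 with the replicate block, 4 without Crebbp+/- 1 and 3 together, and 5 to 383 without any 1 array. For Crebbp+/- against Ep300+/-, 199 became 51 in a fit of 2 genotypes, 1533 with array weights, 760 with the replicate block, 2 without Crebbp+/- 1 and 3 together, 122 without Crebbp+/- 3 and Ep300+/- 3 together, and 2 to 374 without any 1 array. For Ep300+/- against wild-type, 0 became 18 with array weights, 1 with the replicate block and at most 1 without any 1 array. There, same-numbered arrays deviated together in 3 of 4 cases (r from 0.059 to 0.683), and no Ms4a probe set passed with the block. The cause of these moves was not tested. Low signal limits Ms4a8a, whose wild-type values lie at the bottom of the range.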

Other observations

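AW112010, the long non-coding RNA beside Ms4a8a, fell into a lower and a higher range that did not follow the genotypes. The lower range held wild-type 3 (5.62), wild-type 4 (6.48) and Ep300+/- 4 (5.67). The remaining 9 arrays read from 7.93 to 8.72. Prpf19, beyond the end of the cluster, was highest on Ep300+/- 4 (11.67) and lowest on Crebbp+/- 2 (10.04).

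Over the 12 arrays Ms4a4d lay closer to the stromal list than the other Ms4a genes did, with r = 0.864, a description without a test. The order depends on the measure. By deviations from the genotype means Ms4a8a (r = 0.902) was closer to that list than Ms4a4d (0.884). On the 8 arrays without the Crebbp mutation Ms4a4d followed the interferon-induced list (0.924) more closely than the stromal list (0.794). The lowest Ms4a4d value (9.76) and the lowest stromal level (-1.12) were both on Ep300+/- 4.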
